A study of Mus musculus with 12 samples.

Results

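Neutrophil genes and the chemokines that attract neutrophils were followed as a set of 10 genes in mouse prostate tumors. The set comprised 6 neutrophil genes (S100a8, S100a9, Ly6g, Cxcr2, Csf3r, Retnlg), 3 ligands of the receptor CXCR2 (Cxcl1, Cxcl2, Cxcl5) and Acod1, an enzyme gene of activated myeloid cells. The genes were chosen by symbol, each matched 1 row of the 55401 genes counted, and all 10 passed the filter on low counts that left 20818 genes for testing. Tumors grew for 21 days from 125000 TC2Ras cells, a mouse prostate cancer line, injected under the skin of both flanks, and the flank tumors of a mouse were combined. There were 4 groups of 3 tumors: Control (cancer cells alone), ASC (cancer cells mixed with 1% adipose-derived stromal cells carrying GFP), As300 (cancer cells alone, with inorganic arsenic, iAs, given in the water at 300 ppb from implantation on) and ASC_As300 (both). The ASC-GFP cells were primary cells of male GFP-transgenic mice on the C57BL/6 background, and all tumor-bearing mice received low-arsenic chow and purified water for 2 weeks before implantation. The comparisons asked how ASC, iAs and their combination changed the tumor environment.

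Neutrophils leave the bone marrow and enter tissue along gradients of CXC chemokines, which they sense with CXCR2. The growth factor G-CSF, acting through the receptor encoded by Csf3r, drives their production, and S100A8 and S100A9 form calprotectin, an abundant protein of their cytosol. In tumors, neutrophils and the related granulocytic myeloid-derived suppressor cells are known for both killing and suppressing functions. Macrophages and keratinocytes can also make several of these products, and Csf3r is found on monocytes.

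Total counts ran from 39157647 to 55168642 per tumor. Levels are CPM (counts per 1000000, on library sizes scaled by TMM). In each tumor more genes held a count of 4 (1137 to 1298 genes) than a count of 1, 2 or 3 (618 to 976 genes each), so that 1 fragment may have been counted several times, and values at or under 12 counts were treated as at the floor. Control replicate 1 stood apart, at -101.8 on a first principal component that held 17.27% of the variance. The summed level of 7 B cell markers was 222.3 CPM in this tumor and between 2.56 and 15.3 CPM in the other 11. For many of the results that leaving it out changed, the value without it is given too. The label for cell type reads stromal cells in every sample, whereas the protocols speak of harvested tumors, so the samples are taken here as tumors.

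Averaged over the 12 tumors, the 10 genes had low to middling levels among the genes tested. Per kilobase of exon, the mean level of the 10 genes lay between the 16.5th percentile of the genes tested, for Cxcr2, and the 50.1st, for Csf3r. Csf3r had the highest median at 2.51 CPM per kb, with a range of 1.51 to 4.11 over 12 tumors. Cxcl1 followed at 1.95 (1.69 to 2.66), and Csf3r exceeded it in 9 of 12 tumors. S100a9 came next at 1.65 CPM per kb, Acod1 at 1.28, Cxcl5 at 1.02, S100a8 at 0.938, Cxcl2 at 0.757, Retnlg at 0.727 and Ly6g at 0.579. The ranges of all neighbours in this order overlapped, from Csf3r down to Cxcr2, which was the lowest at 0.144 CPM per kb (0 to 0.827).

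**Figure D1:**
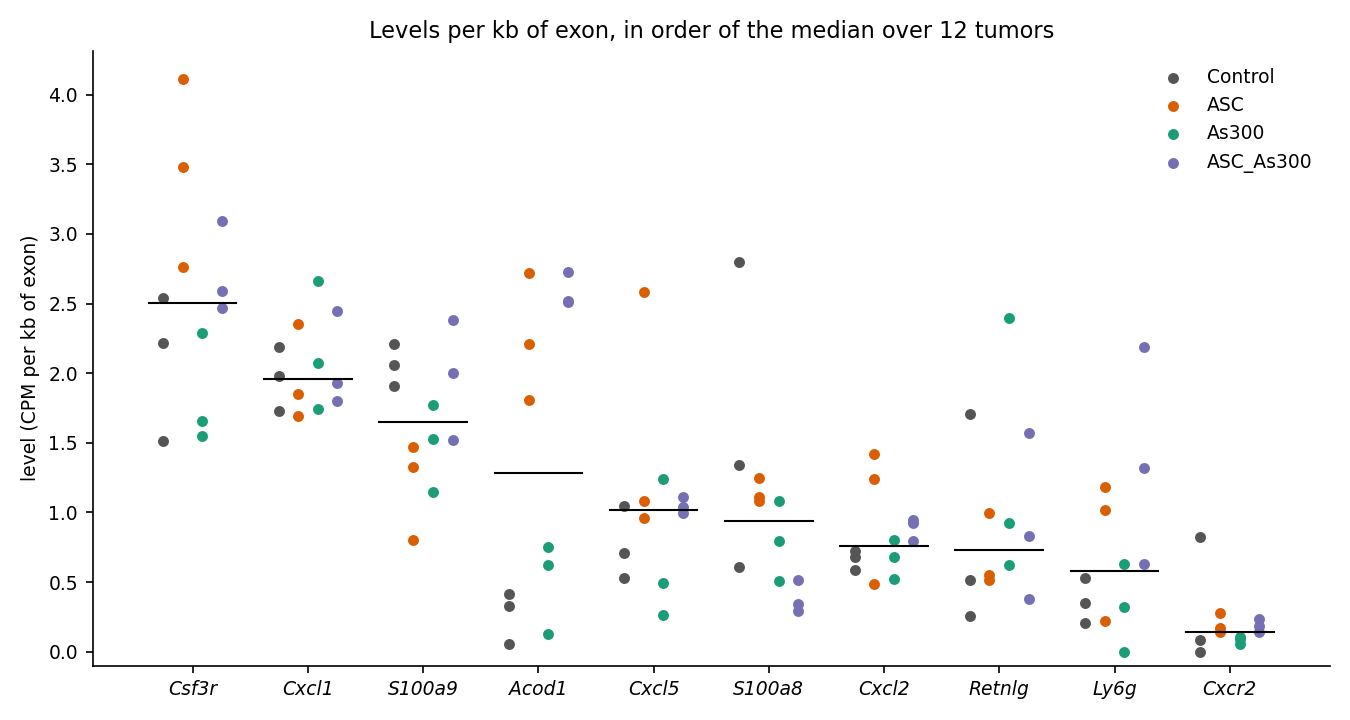
Level of each gene in CPM per kb of exon (vertical axis) in the 12 tumors, 1 point per tumor, colored by group, with the median as a line. The genes stand in order of their median, from Csf3r at 2.51 to Cxcr2 at 0.144, and the points of Acod1 fall into a high set, the tumors with ASC, and a low set, those without.

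Acod1 was the 1 gene of the set that passed the test for a change with ASC. It encodes aconitate decarboxylase, the mitochondrial enzyme that makes the antimicrobial metabolite itaconate in activated macrophages and neutrophils. The gene (ENSMUSG00000022126) lies at chr14:103046977-103056573 of GRCm38, plus strand. Acod1 measured 0.868, 1.09 and 0.152 CPM in the Control tumors and 1.98, 0.327 and 1.64 CPM in As300. In the ASC tumors it measured 5.79, 7.13 and 4.75 CPM, and in ASC_As300 6.59, 7.17 and 6.61 CPM. All 6 tumors with ASC were above all 6 without, and the groups did not overlap. Over both iAs levels the mean was 6.34 ± 0.923 CPM (SD, n = 6) with ASC and 1.01 ± 0.716 CPM (n = 6) without. This was a 6.55-fold increase, with a log2 fold change of 2.71 (SE 0.45, 95% interval 1.74 to 3.68) and an adjusted p of 0.00522 by edgeR's quasi-likelihood test. In bulk tumors, more cells that express a gene and more RNA per cell cannot be told apart, here and for every result that follows.

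Calls required an adjusted p (Benjamini-Hochberg) under 0.05 together with a change of at least 1.5-fold. In the ASC effect over both iAs levels, 1 of the 10 genes was called higher and 0 were called lower, while 1.36% of all genes tested were called higher and 0.0865% lower. DESeq2 called 2 of the 10 higher, Acod1 and Csf3r, and called 1.74% of the genes with an adjusted p higher and 0.376% lower. The median log2 fold change was 0.4 over the 10 genes, 0.62 without Control replicate 1, and -0.004 over all genes tested. A further 3 of the 10, Csf3r, Ly6g and Cxcl5, were higher at an unadjusted p under 0.05 without passing the adjusted threshold. Of the 20818 genes tested, 1443 were higher at that unadjusted level.

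Against Control, which serves all 3 single comparisons, Acod1 was called in ASC_As300 and missed the threshold in ASC. Its log2 fold change was 3.26 (SE 0.65, adjusted p = 0.0334) in ASC_As300, 3.05 (SE 0.64, adjusted p = 0.0535) in ASC and 0.89 (SE 0.62, adjusted p = 0.423) in As300, all by edgeR's quasi-likelihood test. One Control tumor, replicate 3, held only 7 counts of Acod1, and without it the log2 fold change fell to 2.8 in ASC_As300 and 2.6 in ASC. The call in ASC_As300 was lost when any of the 3 Control tumors, any of the 3 ASC_As300 tumors or ASC replicate 1 was left out, with adjusted p up to 0.107. It was also lost with the replicate number as a block (adjusted p = 0.0547). In ASC, Acod1 passed the threshold without ASC replicate 1 (adjusted p = 0.0464) or without As300 replicate 2 (adjusted p = 0.0142). The ASC effect over both iAs levels kept its call in 17 of 17 alternatives, with log2 fold changes of 2.48 to 2.94. The interaction was -0.68 (SE 0.85, adjusted p = 0.775), with a 95% interval of -2.52 to 1.15, so a difference between the ASC effects with and without iAs was not detectable.

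The bases before the start site of Acod1 are shown beside those of Cxcl1 and Cxcl2, since these 3 genes, alone among the members found in the promoter table, shared a match to a kB core, the kind of site that NF-kB binds. The sequences come from RefSeq (GRCm38.p6), whose start sites lie 35 bases inside the GENCODE gene for Acod1, 28 for Cxcl2 and 4 for Cxcl1. Each is the 150 bases before the RefSeq start site on the plus strand, at chr14:103046862-103047011 for Acod1, chr5:90891095-90891244 for Cxcl1 and chr5:90903749-90903898 for Cxcl2, and capitals mark motif matches.
Acod1: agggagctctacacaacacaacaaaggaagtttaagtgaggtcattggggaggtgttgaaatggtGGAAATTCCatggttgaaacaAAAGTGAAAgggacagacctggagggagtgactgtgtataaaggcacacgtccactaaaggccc
Cxcl1: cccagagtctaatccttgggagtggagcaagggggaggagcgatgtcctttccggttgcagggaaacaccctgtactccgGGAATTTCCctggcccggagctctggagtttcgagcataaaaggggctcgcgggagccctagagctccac
Cxcl2: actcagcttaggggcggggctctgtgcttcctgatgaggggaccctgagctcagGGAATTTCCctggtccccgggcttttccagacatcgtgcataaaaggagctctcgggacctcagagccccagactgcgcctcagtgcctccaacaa

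The motifs were chosen after these sequences had been seen, and both strands of 300 bases (250 before and 50 after the start) were searched. The kB core, GGAATTTCC or its reverse complement GGAAATTCC, began 85 bases before the RefSeq start of Acod1, 70 before Cxcl1 and 96 before Cxcl2, and was present in 0.32% of 32544 promoters. A core of the kind bound by IRF factors, AAANNGAAA, began 64 bases before the start of Acod1, does not overlap the kB match, and was present in 10.5% of promoters. Of the 10 genes, 9 were in the promoter table, and no other member there held a match to the kB or the IRF core. A match describes the letters and is not evidence of binding. The 3 genes with the kB core differed in their values: Acod1 rose with ASC, whereas Cxcl1 had a log2 fold change of -0.04 and Cxcl2 of 0.54, neither called.

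Among the receptors, Csf3r was higher with ASC in most tumors but missed the threshold of the main test. It encodes the G-CSF receptor (ENSMUSG00000028859) and lies at chr4:126024550-126044440 (GRCm38, plus strand). Csf3r measured 8, 9.17 and 5.47 CPM in Control, 12.6, 14.8 and 9.95 in ASC, 5.98, 5.6 and 8.28 in As300, and 11.1, 8.93 and 9.36 in ASC_As300. The ASC tumors did not overlap the Control tumors, and 5 of the 6 tumors with ASC were above all 6 without. The mean was 11.1 ± 2.24 CPM (SD, n = 6) with ASC and 7.08 ± 1.59 CPM (n = 6) without, a 1.56-fold difference with a log2 fold change of 0.64 (SE 0.16, adjusted p = 0.0762 by edgeR's quasi-likelihood test). DESeq2 called it in the ASC effect (adjusted p = 0.0058) and in ASC against Control (adjusted p = 0.035). Against Control the log2 fold change by edgeR was 0.72 in ASC (adjusted p = 0.179), 0.38 in ASC_As300 (adjusted p = 0.457) and -0.19 in As300 (adjusted p = 0.686).

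Cxcr2 (ENSMUSG00000026180, chr1:74153989-74161246, plus strand), the receptor for the 3 chemokines, was near the floor in most tumors, and its highest value came from 1 Control tumor. It measured 2.52, 0 and 0.26 CPM in Control, 0.526, 0.858 and 0.443 in ASC, 0.175, 0.286 and 0.318 in As300, and 0.726, 0.435 and 0.574 in ASC_As300. Control replicate 1 held 122 counts, while 3 tumors were at or under 12 counts, and the groups overlapped in every comparison. The iAs effect had a log2 fold change of -0.94 (95% interval -2.63 to 0.74), and 0.48 without Control replicate 1. In As300 against Control the difference was -1.82 (SE 1.12), and 1.03 without that tumor. The ASC effect was 0.27 (95% interval -1.4 to 1.93), and 1.68 (adjusted p = 0.315) without that tumor. That tumor is the one with the high B cell markers, and their part in its Cxcr2 value was not tested.

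The genes of the calprotectin subunits, S100a8 and S100a9, gave different values across the groups. S100a8 measured 1.94, 0.422 and 0.933 CPM in Control, 0.87, 0.75 and 0.769 in ASC, 0.751, 0.552 and 0.353 in As300, and 0.205, 0.356 and 0.237 in ASC_As300. The 3 ASC_As300 tumors lay below all 3 Control tumors, and they held 11, 18 and 12 counts, so that 2 of the 3 were at or under the floor. The log2 fold change in ASC_As300 against Control was -2.04 (SE 0.56) with an adjusted p of 0.124 by edgeR's quasi-likelihood test, and -1.34 (adjusted p = 0.302) without Control replicate 1. In ASC against Control the difference was -0.46 (adjusted p = 0.738), and in As300 against Control -1 (adjusted p = 0.284). Without Control replicate 1 these became 0.24 and -0.28. Over both ASC levels the iAs effect on S100a8 was -1.29 (SE 0.39, adjusted p = 0.187), and -0.93 (adjusted p = 0.279) without that tumor. The ASC effect was -0.75 (95% interval -1.58 to 0.08, adjusted p = 0.529), and -0.41 without Control replicate 1.

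S100a9, which encodes the partner subunit, had a narrower spread. It measured 1.07, 1.15 and 0.998 CPM in Control, 0.769, 0.697 and 0.42 in ASC, 0.926, 0.797 and 0.6 in As300, and 1.04, 1.24 and 0.791 in ASC_As300. The Control tumors lay above all ASC and all As300 tumors and overlapped those of ASC_As300. ASC differed from Control by -0.77 on the log2 scale (SE 0.37), which missed the threshold (adjusted p = 0.341 by edgeR's quasi-likelihood test). The interaction was 1.18 (SE 0.52), with an adjusted p of 0.352. The ASC effect was -0.18 (95% interval -0.74 to 0.38). Over the 12 tumors S100a8 and S100a9 had a Pearson r of -0.0698 (permutation p = 0.828) and a Spearman rho of -0.0629 (permutation p = 0.853), and r was -0.301 without Control replicate 1 and -0.202 without the 2 tumors farthest from the median of S100a8 (adjusted p over 45 pairs 0.998 for r and 1 for rho). S100a8 (ENSMUSG00000056054) lies at chr3:90668978-90670035 (plus strand) and S100a9 (ENSMUSG00000056071) at chr3:90692632-90695721 (minus strand) of GRCm38.

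Ly6g (ENSMUSG00000022582, chr15:75155240-75159126, plus strand) encodes the surface protein by which mouse neutrophils are usually sorted, and Retnlg (ENSMUSG00000022651, chr16:48872621-48874496, plus strand) a resistin-like secreted protein of neutrophils. Ly6g measured 0.331, 0.499 and 0.195 CPM in Control, 1.11, 0.965 and 0.21 in ASC, 0, 0.593 and 0.3 in As300, and 2.07, 0.593 and 1.25 in ASC_As300. All 3 ASC_As300 tumors were above the Control tumors, while 1 ASC tumor was as low as Control. Ly6g was at or under the floor of 12 counts in 3 tumors: Control replicate 3, ASC replicate 3 and As300 replicate 1. The ASC effect had a log2 fold change of 1.63 (SE 0.66) and missed the threshold (adjusted p = 0.385 by edgeR's quasi-likelihood test), and ASC_As300 against Control gave 1.92 (SE 0.94, adjusted p = 0.356). Retnlg ran from 0.152 to 1.43 CPM, with 2 of the 12 tumors at or under 12 counts, and overlapped between all groups. Its ASC effect was -0.39 (95% interval -1.56 to 0.78), and 0.15 without Control replicate 1, where it stood at 1.01 CPM.

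Summed over the 6 neutrophil genes, the level was 14.6 ± 2.63 CPM (SD, n = 6) with ASC and 10.4 ± 2.58 CPM (n = 6) without. Csf3r made up most of this sum. For the other 5 genes the sum was 3.46 ± 0.735 CPM (n = 6) with ASC and 3.3 ± 1.8 CPM (n = 6) without, with the highest value of 6.88 CPM in Control replicate 1 and a range of 2.12 to 4.26 CPM in the other 11 tumors.

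**Figure D2:**
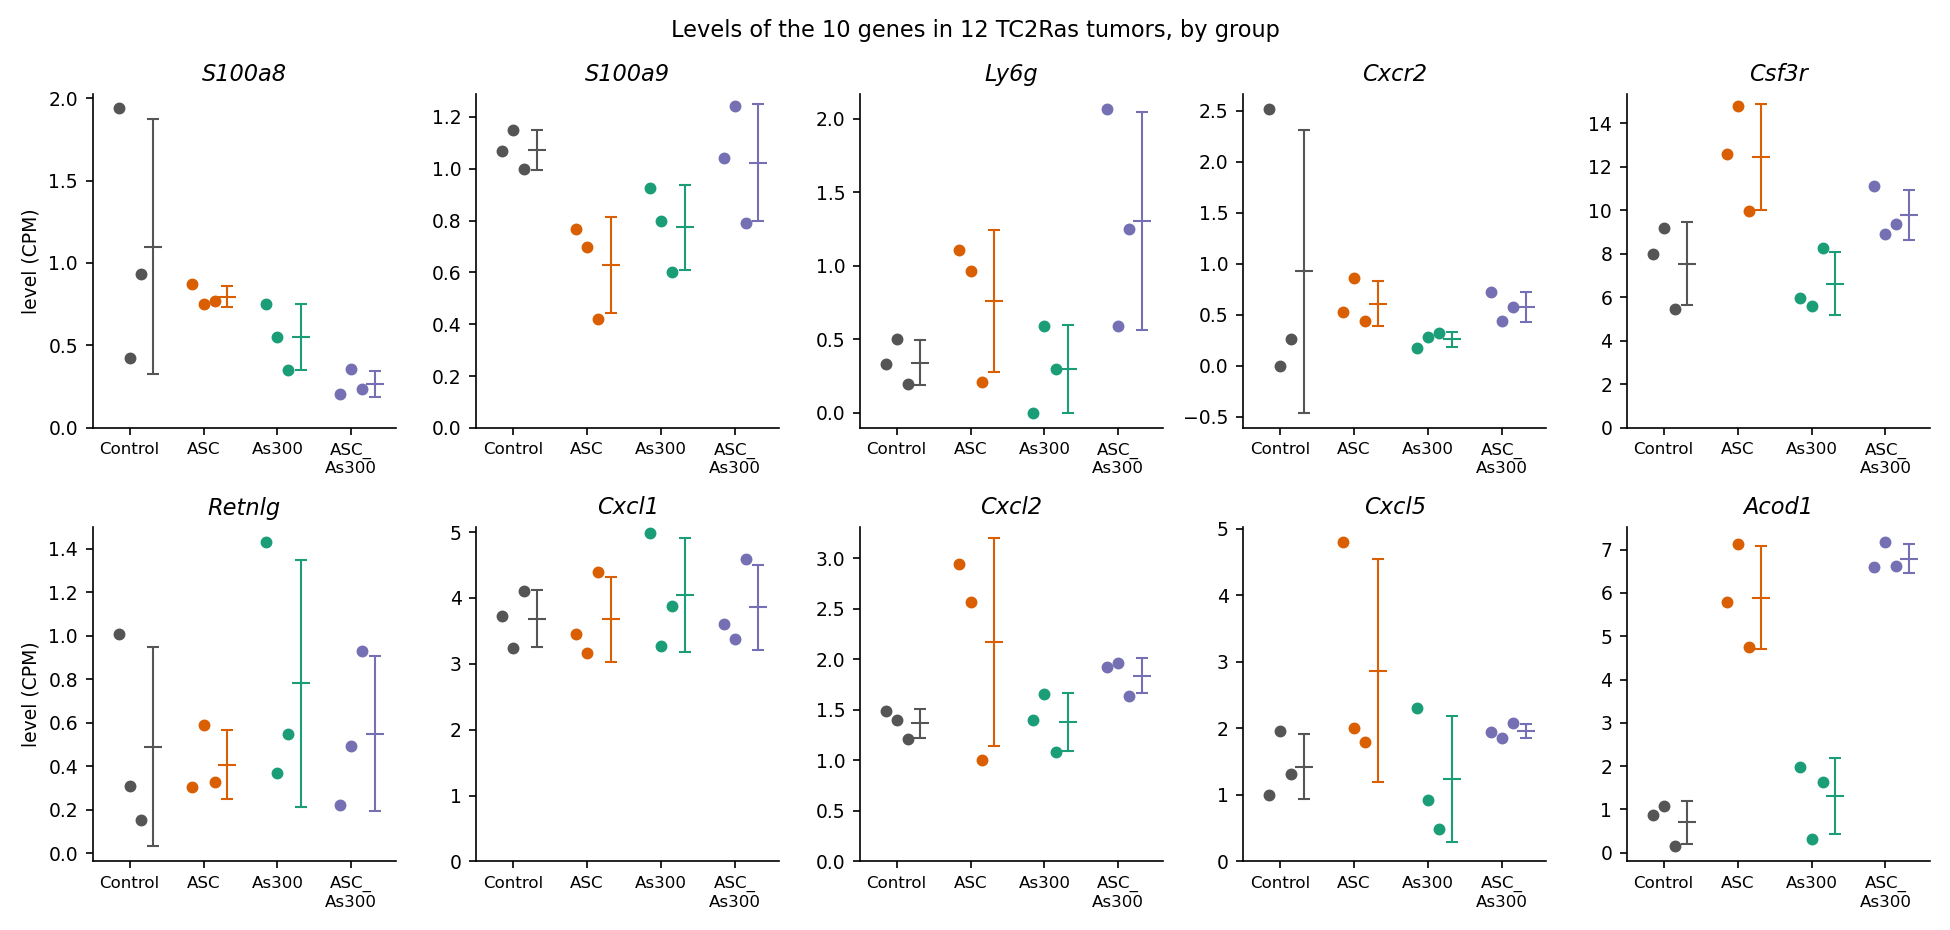
Level of each gene in CPM (vertical axes, separate scales) in the 12 tumors by group, 1 point per tumor, with the mean and SD of the 3 tumors beside them (bars may reach below 0 where the spread is large). Acod1 lies between 4.75 and 7.17 CPM in the 6 tumors with ASC and between 0.152 and 1.98 in the 6 without, Control replicate 1 stands above the rest for Cxcr2 and S100a8, and Cxcl1 shows no separation of groups.

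The 3 CXCR2 ligands lie close together on chromosome 5 and are made by tumor cells, stroma and myeloid cells. Cxcl1 varied little: it measured 3.72, 3.24 and 4.1 CPM in Control, 3.46, 3.16 and 4.4 in ASC, 4.98, 3.27 and 3.88 in As300, and 3.61, 3.38 and 4.59 in ASC_As300. All groups overlapped. The ASC effect had a log2 fold change of -0.04 (SE 0.17), and its 95% interval of -0.39 to 0.32 excluded a change of 1.5-fold in either direction (0.585 on the log2 scale). Cxcl1 (ENSMUSG00000029380) lies at chr5:90891241-90893115 of GRCm38, before Cxcl2 (ENSMUSG00000058427) at chr5:90903871-90905938 and after Cxcl5 (ENSMUSG00000029371) at chr5:90759360-90761624, all on the plus strand.

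Cxcl2 measured 1.49, 1.4 and 1.21 CPM in Control, 2.94, 2.57 and 1 in ASC, 1.4, 1.66 and 1.08 in As300, and 1.92, 1.96 and 1.64 in ASC_As300. The ASC group held both the 2 highest values and the lowest value of all 12 tumors. The ASC effect was 0.54 (SE 0.26, 95% interval -0.03 to 1.11, adjusted p = 0.491 by edgeR's quasi-likelihood test). Cxcl5 measured 0.992, 1.96 and 1.32 CPM in Control, 4.8, 2.01 and 1.79 in ASC, 2.3, 0.92 and 0.494 in As300, and 1.94, 1.86 and 2.08 in ASC_As300. ASC replicate 1 was the highest by far, and the groups overlapped. The ASC effect on Cxcl5 was 0.84 (SE 0.37, adjusted p = 0.439), and 0.54 without ASC replicate 1. Against Control, the difference in ASC fell from 1.01 (adjusted p = 0.391) to 0.43 without that tumor. The sum of the 3 ligands was 8.18 ± 1.53 CPM (SD, n = 6) with ASC and 6.57 ± 1.13 CPM (n = 6) without, and the ranges overlapped (7.19 to 11.2 against 5.46 to 8.68 CPM).

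In the single comparisons with Control, few of the 10 genes passed. In ASC, 0 were called higher or lower, while 0.706% of all genes tested were called higher and 0.0144% lower. At an unadjusted p under 0.05, 2 of the 10, Acod1 and Csf3r, were higher (3 of the 10 without Control replicate 1). Of the 20818 genes tested, 1779 were higher and 1431 lower at that level in ASC. DESeq2, which gave an adjusted p for 5 of the 10, called Acod1 and Csf3r, and called 2.64% of its genes higher and 0.545% lower. In ASC_As300, 1 was called higher and 0 lower, while 0.783% of all genes were called higher and 0.024% lower. DESeq2 also called 1 of the 10 there, Acod1, with 2.05% of its genes higher and 0.473% lower. In As300, 0 were called higher or lower by edgeR, with none at an unadjusted p under 0.05 (1 higher without Control replicate 1). Of all genes tested, 2324 were higher and 2701 lower at that level in As300. DESeq2 called 0 there among the 9 with an adjusted p. Of all genes, 0.701% were called higher and 0.355% lower in As300 by edgeR and 3.08% and 2% by DESeq2. The edgeR shares in As300 changed when 1 tumor was left out. Without any 1 of the 3 Control tumors 0 genes were called. The same held without ASC_As300 replicate 1 or 3, tumors outside this comparison that share its estimate of spread. Over all 12 tumors left out in turn the calls ran from 0 to 279 higher and from 0 to 165 lower. The reason was not tested. The median log2 fold change of the 10 genes was 0.33 in ASC, 0.27 in ASC_As300 and -0.19 in As300 (0.79, 0.46 and -0.02 without Control replicate 1), and that of all genes tested lay between -0.028 and -0.004.

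Neither the iAs effect nor the interaction gave a call for any gene by edgeR. By edgeR, 0% of the genes tested were called higher and 0% lower in either of them, although 1564 genes were higher and 1761 lower at an unadjusted p under 0.05 in the iAs effect, and 1473 and 1363 in the interaction. Of the 10 genes, S100a8 was lower with iAs and S100a9 positive in the interaction at that unadjusted level. Without Control replicate 1, 0 of the 10 reached that level in the interaction. The iAs effects of the 10 genes ranged from -1.29 for S100a8 to 0.55 for Acod1 (adjusted p = 0.567). DESeq2 called 0 members in both comparisons, with an adjusted p for 5 of them in the iAs effect and for all 10 in the interaction. Over all genes with an adjusted p, DESeq2 called 0.203% higher and 0.568% lower in the iAs effect and 0.173% and 0.866% in the interaction. With single tumors left out in turn, edgeR called 0 to 14 genes higher and 0 to 45 lower in the iAs effect. The most calls came without ASC replicate 3. In the interaction the calls ran from 0 to 1 in each direction.

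**Figure D3:**
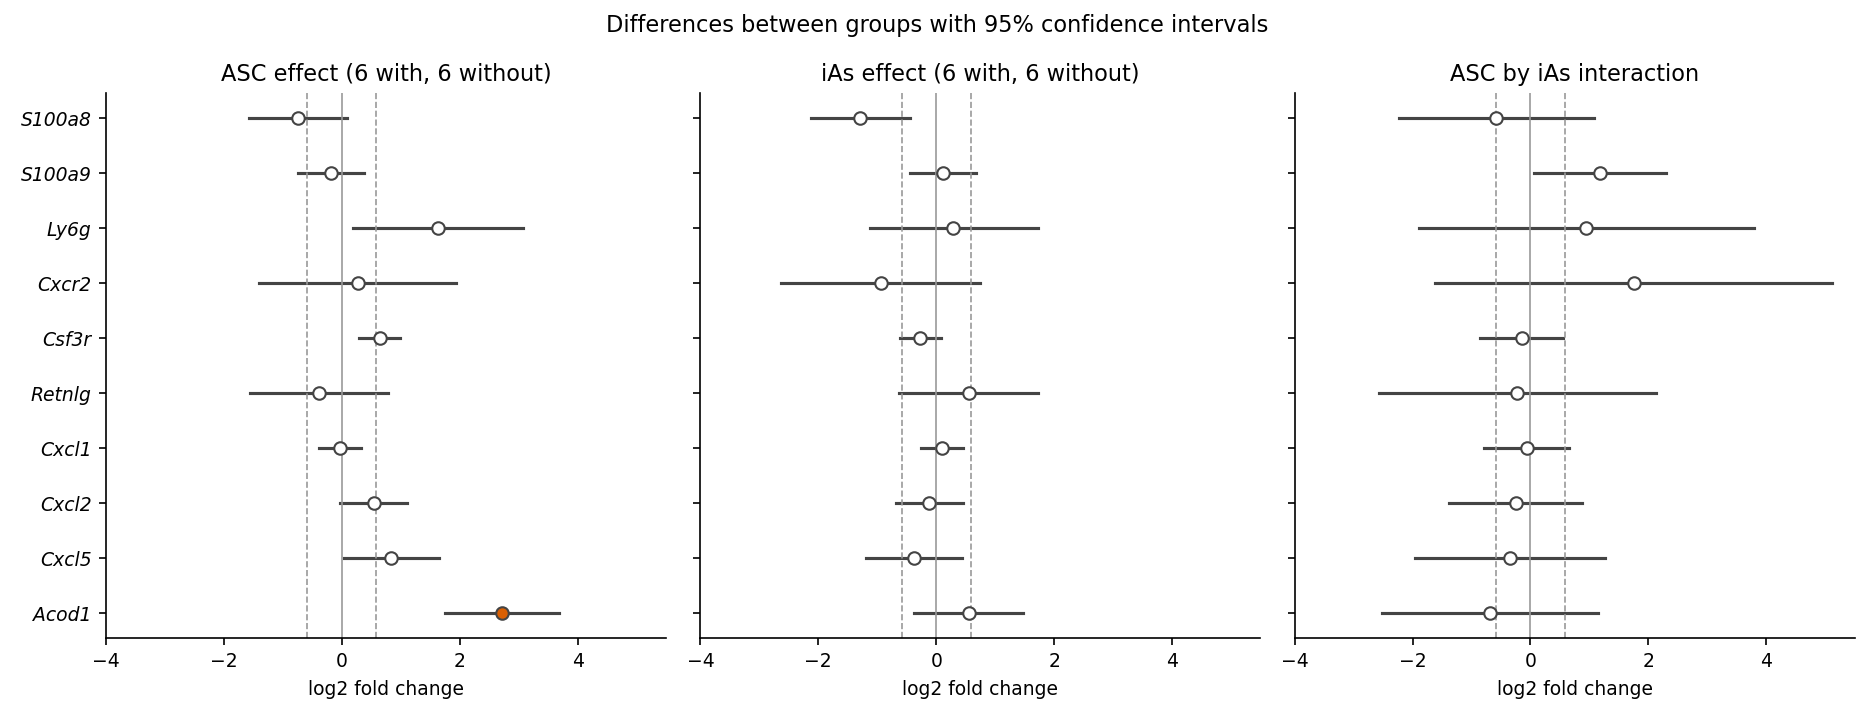
Log2 fold change (horizontal axes) of each gene for the ASC effect, the iAs effect and their interaction, with 95% confidence intervals as lines, a filled point for a call and dashed lines at 1.5-fold. Acod1 at 2.71 in the ASC effect is the one filled point, and the intervals of Cxcl1 in the ASC and iAs effects lie within the dashed lines.

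Other neutrophil genes ranged from absent to well above the members. Of 15 further granule and maturation genes 10 could be tested, with a sum over the list of 60.9 to 107 CPM per tumor. Gfi1 and Mmp9 made up most of this sum, with means of 53 and 21.9 CPM in Control, where the sum averaged 82.7 CPM. In the same group Prtn3, Ctsg, Ltf, Mmp8 and Cd177 had means of 0.12 to 0.279 CPM. Of 20 further surface and effector genes 16 could be tested, with a sum of 95.8 to 245.6 CPM. Gfi1, a transcription factor of granulocyte development, had a median of 53.7 CPM, and Itgam, the CD11b integrin that macrophages share, 55.9 CPM. Several granule genes were at 0 in most tumors: Mpo, the myeloperoxidase gene of immature neutrophils, was at 0 in 11 of 12 tumors, Elane (neutrophil elastase) at 0 in 10, Ngp at 0 in 8 and Camp, the cathelicidin gene, at 0 in 7. Cxcr1, the gene of a related chemokine receptor, was at 0 in 10. In the ASC effect 1 of the 10 granule genes was called lower and 0 higher, with a median log2 fold change of 0.05. That gene was Mmp9 (gelatinase B), at 10.7 ± 0.801 CPM (SD, n = 6) with ASC and 25.7 ± 10.4 CPM (n = 6) without, a log2 fold change of -1.25 (SE 0.21, adjusted p = 0.00519). All 6 tumors with ASC were below all 6 without. Mmp9 is also made by macrophages and by tumor cells.

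Of the 16 surface and effector genes 1 was called higher and 0 lower in the ASC effect, with a median of 0.2. It was Fpr2, a formyl peptide receptor of neutrophils and monocytes, at 2.76 ± 0.383 CPM (SD, n = 6) with ASC and 0.943 ± 0.283 CPM (n = 6) without (log2 fold change 1.56, SE 0.22, adjusted p = 0.0015), again with no overlap. Mmp25, a membrane-bound neutrophil protease, reached 1.03 (SE 0.25) with an adjusted p of 0.0603. Neither list had another call by edgeR with all tumors kept. Without Control replicate 1, edgeR called 1 surface and effector gene higher in ASC against Control and 1 in ASC_As300 against Control. DESeq2 also called Mmp25 higher in the ASC effect, and Mmp9 lower and Fpr2 higher in both ASC groups against Control. With iAs, G0s2 had a log2 fold change of -2.71 (SE 0.65, adjusted p = 0.181), which DESeq2 called.

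Of the 17 further factors of the CXCR2 axis and of granulocyte production, 14 were tested. With all 12 tumors edgeR gave 0 calls among them in any of the 6 comparisons. Without Control replicate 1 it called 1 of them higher in the ASC effect. In the ASC effect over all 12 tumors 2 were higher and 1 lower at an unadjusted p under 0.05, with a median log2 fold change of 0.08. Of the 20818 genes tested, 1443 were higher and 825 lower at that level in the ASC effect. DESeq2 called 1 there, Tnf. In ASC_As300 against Control DESeq2 called 2 higher, Tnf and Il1b. Tnf, an inducer of the ligands, came closest, at 3.72 ± 0.745 CPM (SD, n = 6) with ASC and 1.71 ± 0.613 CPM (n = 6) without (log2 fold change 1.12, SE 0.28, adjusted p = 0.0765 by edgeR's quasi-likelihood test), with all 6 tumors with ASC above the rest. Il1b had an ASC effect of 0.63 (SE 0.22, adjusted p = 0.258) and Cxcl3, a further CXCR2 ligand, of 0.98 (SE 0.47, adjusted p = 0.487). Csf3, the gene of G-CSF itself, lay between 0.0593 and 0.65 CPM, and Il17a and Cxcl15 were at 0 in all 12 tumors, with an upper limit of 12 counts per tumor for each at this depth. The 5 enzymes around itaconate gave 0 calls by edgeR and by DESeq2 in all comparisons, with ASC effects between -0.03 and 0.08 and none of them at an unadjusted p under 0.05.

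Interferon gamma and its targets were higher in the same tumors as Acod1. Of 10 such genes 8 were called higher and 0 lower in the ASC effect, with a median log2 fold change of 1.95, and their summed level was 929 to 1225.9 CPM in the tumors with ASC and 145.7 to 254.5 CPM in those without. Among them, Ifng rose by 3.63 and Gbp2, a guanylate-binding protein gene, by 3.65 on the log2 scale. Of 14 macrophage and monocyte markers 2 were called higher, Fcgr1 (1.02) and C1qb (0.61), and their summed level was 1394.8 to 1908.6 CPM with ASC and 932.7 to 1311.2 CPM without, with no overlap. The part of these genes and cells in the Acod1 and Csf3r values was not tested.

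**Figure D4:**
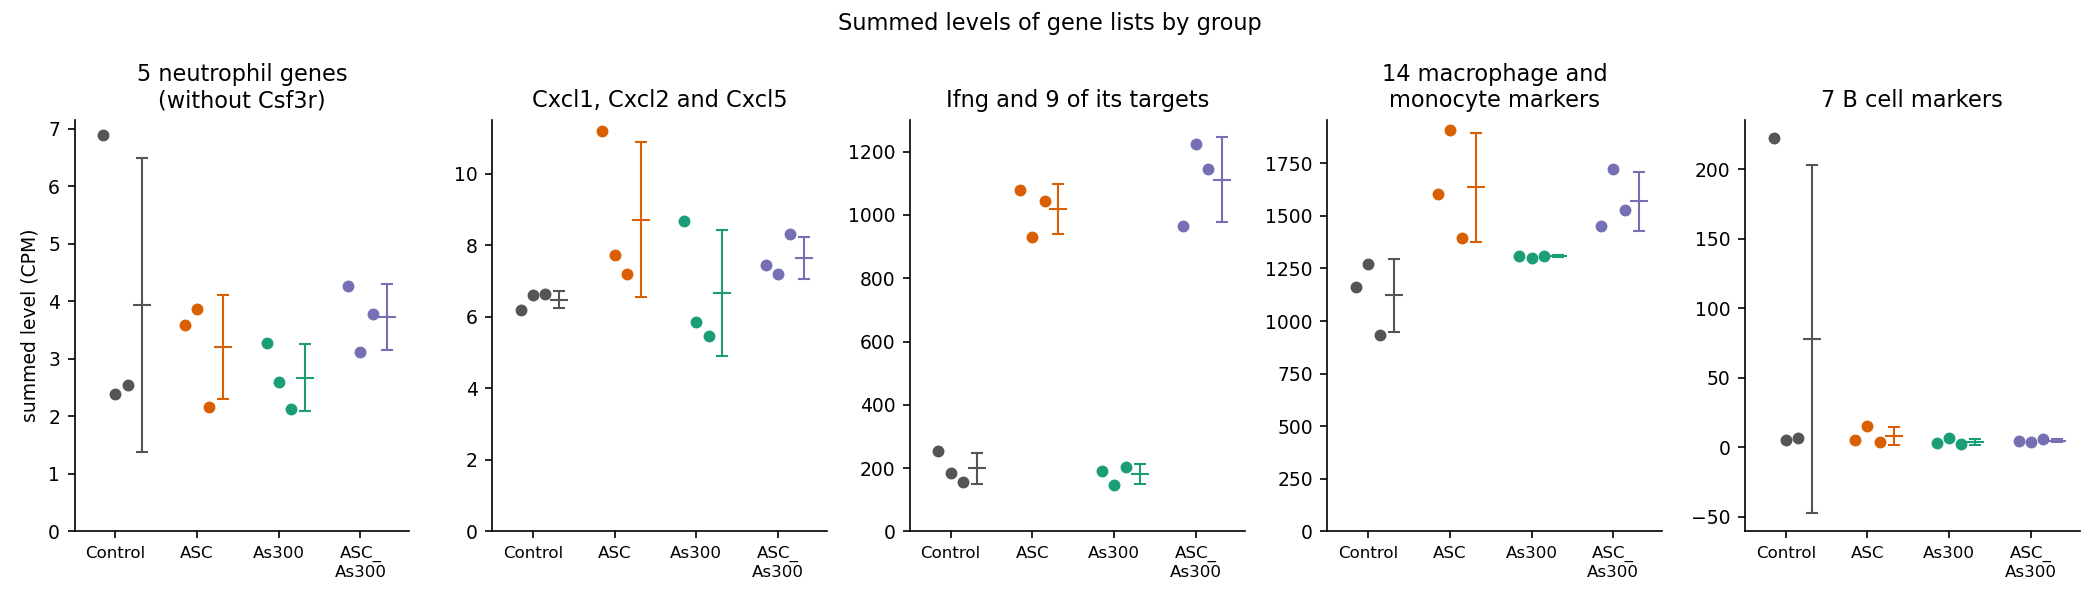
Summed level in CPM (vertical axes, separate scales) of 5 gene lists in the 12 tumors by group, 1 point per tumor, with the mean and SD beside them (bars may reach below 0). The interferon gamma list separates the 6 tumors with ASC from the 6 without, the neutrophil genes and the ligands do not, and Control replicate 1 stands at 222.3 CPM for the B cell markers.

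Of the keratinocyte markers, listed because keratinocytes can make S100a8 and S100a9, levels differed widely. Krt5 was at 0 in 8 of 12 tumors and Krt1 at 0 in 7, Krt14 and Krt16 had medians of 0.487 and 0.57 CPM, Krt10 ran from 2.99 to 5.83 CPM, and Sprr1a stood between 60.3 and 202.5 CPM. None of the 8 keratinocyte markers tested, 8 mast cell, basophil and eosinophil markers, 6 blood markers or 7 B cell markers was called in any comparison by edgeR or DESeq2, and DESeq2 gave no adjusted p for the B cell markers. In the ASC effect 1, 2, 0 and 2 of them differed at an unadjusted p under 0.05, the B cell markers being lower (without Control replicate 1, 0 lower and 1 higher) and the others higher. Of the 20818 genes tested, 1443 were higher and 825 lower at that level in the ASC effect, and 1761 lower in the iAs effect. The B cell markers had a median log2 fold change of -3.05 in the iAs effect, with 7 of 7 lower at an unadjusted p under 0.05, against -1.14 and 2 of 7 without Control replicate 1, and Control replicate 1 carried nearly all of their level in the tumors without iAs.

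Over the 12 tumors, 45 pairs of the 10 genes were tested for correlation, and 0 passed an adjusted p of 0.05 with Pearson's r or Spearman's rho, also without Control replicate 1 for r. For deviations from the group means 1 pair passed, S100a9 and Cxcl2 (r = 0.848, permutation test, adjusted p = 0.0072). Csf3r and Acod1 had r = 0.714 (permutation test, adjusted p = 0.106). These p-values are too small, because deviations sum to 0 within each group and the permutations treated all 12 as free. Before the group means were taken off, S100a9 and Cxcl2 had r = 0.274 (permutation test, adjusted p = 0.76). It was -0.179 without the 2 tumors farthest from the median of S100a9. Because Acod1 splits the tumors by ASC, its relation to Csf3r was computed within each set: r was 0.129 (exact permutation p = 0.807) and rho -0.257 (exact p = 0.658) over the 6 tumors with ASC, and r was 0.597 (exact permutation p = 0.244) and rho 0.6 (exact p = 0.242) over the 6 without. The adjusted values over both sets were 0.807 and 0.488 for r. Without the 2 tumors farthest from the median of Csf3r, r was -0.243 and 0.413.

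The genes most like each member in log2 CPM over the 12 tumors differed between members. For Acod1 they were H2-K1 (r = 0.952), a class I histocompatibility gene, Oasl2 (r = 0.949) and Pycard (r = 0.948), the adaptor of the inflammasome. For Csf3r they were Gm8989 (r = 0.965) and the interferon-induced genes Mx1 (r = 0.95) and Ddx60 (r = 0.928). Those of Cxcr2 were H2-Oa (r = 0.923, and 0.884 without Control replicate 1), a B cell gene of the class II pathway that ran from 0 to 9.67 CPM, Tmem243 (r = 0.908) and Hhex (r = 0.901). Cxcl2 was most like Frmd4b (r = 0.931), Cxcl5 most like Taok3 (r = 0.928), and the best r was between 0.869 and 0.898 for S100a8, S100a9, Ly6g, Retnlg and Cxcl1. These were the highest of 20818 genes over tumors that share their groups, and are given as a description.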

How the data were processed

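Poly(A) RNA of 12 TC2Ras tumors, 3 in each of 4 groups, was sequenced as paired-end reads from stranded libraries. The authors used Cutadapt 1.1.0 for trimming, HISAT2 2.0 for alignment and StringTie 1.3.4 for quantification (versions from the submitters' processing notes), and the deposited values used here are whole-number counts per Ensembl gene without normalization. The genome build, the annotation and the step that gave the counts are not given in the sources used here. Symbols, positions and exon lengths came from GENCODE M21 (GRCm38), which named all but 260 of 55401 genes.

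Counts were analysed in R 4.3.3 with edgeR 4.0.16: filterByExpr by group, TMM, 1 mean per group over all 12 tumors and the quasi-likelihood F test, with Benjamini-Hochberg adjustment over the 20818 genes tested. Correlations of log2 CPM (prior count 2) used 100000 permutations, or all orders within 6 tumors. The script was tested on simulated data. With 3 tumors a group, the smallest p of an exact two-sided permutation test is 0.1. Alternatives were the DESeq2 1.42.0 Wald test, DESeq2 size factors, no filter, at least 10 counts in every tumor, counts divided by 4, only the 6 tumors compared, a replicate block, adjusted p alone, and leaving out each tumor.

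The 10 genes and 10 further lists were chosen with earlier results of these data known. Named genes are the 10 members, list genes that were called or among the 4 with the smallest p of a list in a comparison, and the 3 genes most like each member. List genes named for their level alone (such as Mpo, Elane, Cxcr1, Gfi1, Itgam, Csf3, Krt1 and Krt10) were picked after their values were seen. The summed levels of members were also chosen then. Items withheld from this text, a further promoter motif among them, are not reported here.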

Additional observations from a re-analysis of the deposited data

Results flagged for a closer look

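Among 40 sets of 6 tumors (10 genes, with and without ASC and with and without iAs), 6 held a tumor far from the others by Dixon's test at 95%, and chance flags about 1 in 20. S100a8 was highest in Control replicate 1, at 1.94 CPM, against 0.353 to 0.933 CPM in the other tumors without ASC and 0.422 to 0.933 CPM in the others without iAs. Cxcr2 was also highest in Control replicate 1, at 2.52 CPM, against 0 to 0.318 CPM in the others without ASC and 0 to 0.858 CPM in the others without iAs. Cxcl5 was highest in ASC replicate 1, at 4.8 CPM, against 1.79 to 2.08 CPM in the others with ASC and 0.992 to 2.01 CPM in the others without iAs. No member passed the test of a difference between the ASC effects at 0 and 300 ppb iAs.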

How the results depend on the processing

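The log2 fold changes of the 10 genes in 6 comparisons gave 1080 values under alternatives, of which 1011 kept their direction and side of the threshold, 6 gained a call, 8 lost one and 55, in 26 of 60 pairs of gene and comparison, changed sign, none of them a called result. Where DESeq2 gave no adjusted p, only the direction was compared. Among the pairs with printed values, signs changed when 1 tumor was left out for S100a8 in ASC against Control (-0.83 to 0.24), Cxcr2 in As300 against Control (-2.37 to 1.03), in the ASC effect (-0.02 to 1.68) and in the iAs effect (-1.22 to 0.48), Csf3r in As300 against Control (-0.36 to 0), Retnlg in the ASC effect (-0.69 to 0.15) and Cxcl1 in the ASC effect (-0.11 to 0.05). The number of genes called in ASC against Control was 0, 2 by DESeq2, 1 with counts divided by 4 and 0 to 1 without single tumors. In ASC_As300 it was 1, and 0 with at least 10 counts in every tumor, where Acod1 is filtered out, 0 with the replicate block and 0 to 1 without single tumors. In the ASC effect it was 1, 2 by DESeq2 and 0 with that filter. In the other comparisons it stayed at 0 under every alternative. The count of correlated pairs was 0, and 1 for deviations from group means, where the p-values are too small. Causes were not tested beyond that filter. Deviations of same-numbered tumors had correlations of -0.124 to 0.172 (median 0.0273), against -0.222 to 0.246 (median -0.0143) for other numbers. The ranges overlapped, and whether the numbers pair the tumors was not tested further. The replicate block changed 1 call. Precision for genes near 12 counts is limited by depth.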
